A study of Mus musculus with 5 samples.

Results

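The genes described here are 10 members of the matrix metalloproteinase (MMP) system of the mouse, chosen by symbol: the proteases *Mmp2*, *Mmp3*, *Mmp9*, *Mmp10*, *Mmp13*, *Mmp14* and *Mmp19*, and the inhibitors *Timp1*, *Timp2* and *Timp3*. All 10 were among the 21835 genes of the deposited table, and 6 of them (*Timp1*, *Timp2*, *Timp3*, *Mmp14*, *Mmp2* and *Mmp19*) were expressed highly enough to be tested. The table came from bulk mRNA sequencing of cultured cancer-associated fibroblasts (CAFs) of murine lung, with 2 samples of control cells (CAF-vec, genotype "WT control") and 3 samples of cells with miR-200 overexpression (CAF-200). CAF-200 carried the gene cluster of miR-200a, miR-200b and miR-429 in a lentiviral vector, and all samples were CAFs grown in alpha-MEM with serum. The labels describe a neomycin-resistance vector and selection with G418 for more than 2 weeks, whereas the methods of the study name a hygromycin-resistance vector. The methods describe RNA taken in triplicate from each line, whereas 2 CAF-vec samples were analysed here. The labels do not say whether the samples of a group were separate cultures, so the *p* values below measure the spread between these samples, which may be technical. The comparison asks which genes change in CAFs when miR-200 is restored.

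MMPs are zinc-dependent proteases that cut collagens and other proteins of the extracellular matrix, and they also release growth factors and cell-surface proteins. They are made as inactive precursors that need proteolytic activation, and the tissue inhibitors of metalloproteinases (TIMPs) block the active enzymes by binding in their catalytic cleft. Fibroblasts are a main source of both in lung tumors, where matrix remodeling by CAFs accompanies invasion.

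The overexpressed cluster encodes 3 microRNAs, whose mature sequences are shown because their seeds (bases 2 to 8, in capitals) define the matches searched in the MMP and TIMP transcripts. The sequences are those of RefSeq (GRCm38.p6), from the minus strand of chromosome 4. miR-200b and miR-429 share a seed, and the seed of miR-200a differs from it.
mmu-miR-200b-3p (chr4:156055685-156055706): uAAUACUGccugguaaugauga
mmu-miR-429-3p (chr4:156053916-156053937): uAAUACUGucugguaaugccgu
mmu-miR-200a-3p (chr4:156054911-156054932): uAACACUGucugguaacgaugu
Mature microRNAs were not measured in these mRNA libraries.

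Values are in CPM, a unit of read counts scaled to a common total, and each sample of the authors' table summed to between 999956 and 1000111 CPM. The values were not whole multiples of 1 read and may have been re-estimated, by steps not given in the sources used here, and the total count behind each sample is unknown. Fold-changes are differences of log2(CPM + 0.5), which understates the change of low genes, and *p* values are two-sided, from limma, adjusted by the Benjamini-Hochberg method over the 12175 genes that reached 0.5 CPM in 2 or more samples. A gene was called changed at an adjusted *p* under 0.05, and was said to pass both thresholds of the study at an adjusted *p* under 0.01 with a log2 fold-change beyond 1 in either direction. The spread within CAF-vec was wider (SD of the log2 difference between its samples over the tested genes 0.49) than within CAF-200 (0.192 to 0.204 for each pair), while samples of different groups differed by 0.523 to 0.735. All 8 fibroblast markers listed were tested, summing to 7421 to 14071 CPM for CAF-vec and 6501 to 7188 CPM for CAF-200, most of it *Col1a1*, *Col1a2* and *Vim*. The markers themselves went both ways, with a median log2 fold-change of -0.22: 3 of the 8 rose past both thresholds given above, *Dcn* (means of 7.93 and 56.4 CPM), *Lum* (3.63 and 28.6 CPM) and *Thy1* (98.0 and 268 CPM), while all CAF-200 values were below the CAF-vec values for *Col1a1*, *Col1a2* and *Pdgfrb*, which did not pass the test (limma, adjusted *p* 0.0776 to 0.112). Among all tested genes 2.37% were higher by both thresholds, and 37.3% had all CAF-200 values below the CAF-vec values. Of 7 epithelial markers, 6 were below 0.1 CPM in every sample, and the list summed to at most 0.421 CPM. In bulk samples, a change in the amount of RNA per cell and a change in the share of cells that make it cannot be told apart.

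*Timp1* rose steeply in CAF-200, whereas *Timp3*, *Mmp14* and *Mmp2* fell by less than 1 on the log2 scale. By both thresholds of the study, 1 of the 6 tested members was higher (*Timp1*) and 0 were lower, where 4.72% of all tested genes passed, 2.37% higher and 2.35% lower. By the adjusted *p* under 0.05 alone, 1 member was higher and 3 were lower, where 30.5% of all tested genes were called, 11.9% higher and 18.6% lower. At an unadjusted *p* under 0.05, 1 was higher and 4 were lower, where 44.9% of all tested genes were called, 17.3% higher and 27.6% lower. The CAF-200 values lay above both CAF-vec values for 1 tested member and below both for 4, while the groups were separate in 61.6% of all tested genes, 24.3% above and 37.3% below. Without any 1 of the CAF-200 samples, 0 members passed both thresholds, and 1 was higher and 1 lower at an adjusted *p* under 0.05. Calls over all tested genes moved likewise. In these fits at most 1 of all tested genes passed both thresholds. At an adjusted *p* under 0.05, the share called went from 30.5% to 7.59% to 10.4%, with 3.59% to 4.42% higher and 4% to 5.98% lower. The median log2 fold-change of the 6 members was -0.44, and that of all tested genes was -0.09.

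**Figure D1:**
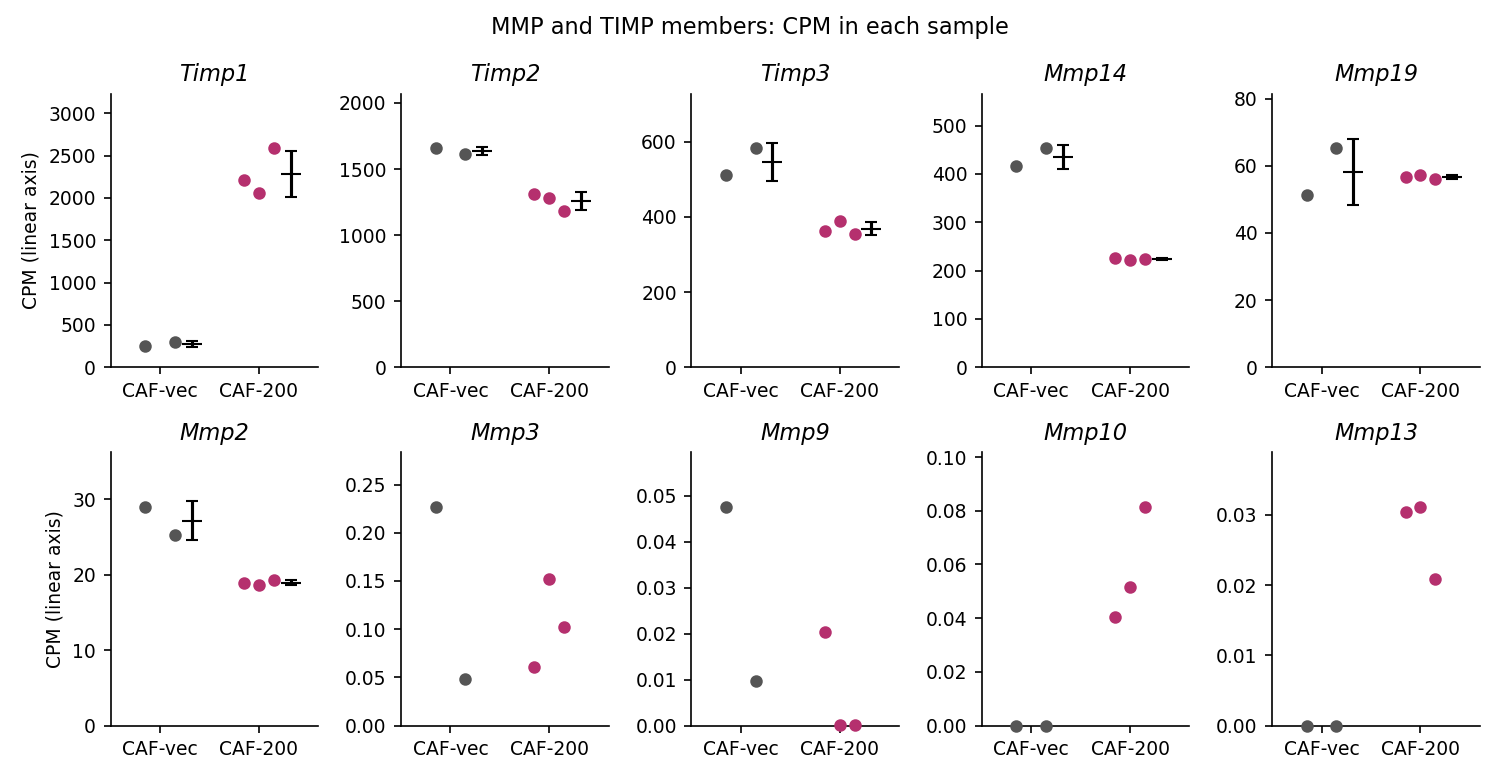
CPM of the 10 genes in each sample on linear axes that differ between panels, with CAF-vec (n = 2) in gray and CAF-200 (n = 3) in magenta. Bars show the mean ± SD for the 6 tested genes, and the 4 genes too low to test are shown as points alone; *Timp1* is the tested gene with all CAF-200 values above the CAF-vec values.

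Of the inhibitors, *Timp1* (ENSMUSG00000001131, chromosome X of GRCm38, 20870166 to 20874735, plus strand) encodes a secreted glycoprotein that inhibits most soluble MMPs and binds the membrane enzyme MMP14 weakly. Its level was 246 and 296 CPM in CAF-vec, against 2208, 2055 and 2587 CPM in CAF-200. The lowest CAF-200 value was far above the highest CAF-vec value. The means were 271 ± 35.6 CPM (SD, n = 2) and 2283 ± 274 CPM (SD, n = 3), which is a log2 fold-change of 3.07 (standard error [SE] 0.155, 95% interval 2.69 to 3.46) and an 8.41-fold increase (limma, adjusted *p* = 9.6e-04). Only 8 of the tested genes had a larger rise, and *Timp1* was in position 9. Without any 1 of the CAF-200 samples the adjusted *p* was 0.0121 to 0.0148 (limma), above the 0.01 of the study, with log2 fold-changes of 2.98 to 3.15. In each of these fits at most 1 of all tested genes passed both thresholds. *Timp1* lies within the neuronal gene *Syn1*, on the opposite strand. The libraries were stranded, but whether the authors counted by strand is not given in the sources used here.

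The pattern of *Timp1* over the 5 samples was most like that of *Ncam1*, a neural cell adhesion molecule, with a Euclidean distance of 0.139 between the centred log2 values. The next genes were *Lgr6*, a Wnt-pathway receptor (0.351), *Has2*, a hyaluronan synthase (0.352), *Cnn1*, the smooth muscle protein calponin (0.46), and *Lum*, a small matrix proteoglycan (0.504). Their log2 fold-changes ran from 2.79 to 3.19, and all 5 passed both thresholds. However, *Lgr6* (0.153 and 0.319 CPM in CAF-vec) and *Has2* (0.274 and 0.319 CPM) reached the level needed for testing only through CAF-200. These distances describe 5 samples in 2 groups, so they mostly rank genes by the size of the difference between the groups.

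The promoter of *Timp1* is shown because this gene had the largest change among the members, and it runs from 250 bases before to 50 bases after the transcription start. It is the RefSeq window at chrX:20869916-20870215 of GRCm38.p6 (plus strand).
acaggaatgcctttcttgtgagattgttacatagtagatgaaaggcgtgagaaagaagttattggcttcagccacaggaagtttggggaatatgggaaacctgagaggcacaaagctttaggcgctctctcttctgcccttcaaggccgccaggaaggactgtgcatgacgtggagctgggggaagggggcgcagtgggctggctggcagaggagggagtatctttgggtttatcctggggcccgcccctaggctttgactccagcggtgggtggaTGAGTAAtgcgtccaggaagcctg
The capitals mark TGAGTAA, which begins 26 bases past the start and occurs once in the window, counting its reverse TTACTCA. It is a variant of TGAGTCA, the sequence bound by the transcription factor AP-1, and it was searched only after the promoter had been read. It is found on either strand in 880 of 32851 RefSeq promoters, or 2.68%, and among the 22 MMP and TIMP genes with a promoter in the RefSeq table *Timp1* alone had it. TGAGTCA itself, with its reverse TGACTCA, is not in this window. A match describes letters in a window and does not show that a factor binds there.

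*Timp2* (ENSMUSG00000017466, chromosome 11, 118301069 to 118355740, minus strand) encodes an inhibitor that also takes part in activation, since a complex of its protein with MMP14 captures the precursor of MMP2. It was at 1657 and 1612 CPM in CAF-vec and at 1309, 1281 and 1182 CPM in CAF-200. Every CAF-200 value was below both CAF-vec values, but the change did not pass the test, with a log2 fold-change of -0.38 (SE 0.118, limma, adjusted *p* = 0.0585). The call depended on the fit. It was gained with an adjusted *p* of 0.0357 after quantile normalization, 0.0345 without a variance trend, 0.00943 without CAF-vec 1 and 0.00379 without CAF-vec 2, and it was further off at 0.374 with the replicate number as a block, 0.186 to 0.236 without any 1 of the CAF-200 samples, 0.113 after centring on the sample medians and 0.105 without a filter (limma). The gene overlaps *Cep295nl* on the same strand, so its reads could be split between them and its value is uncertain.

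*Timp3* (ENSMUSG00000020044, chromosome 10, 86300372 to 86349506, plus strand) encodes the inhibitor that binds to the extracellular matrix and also blocks the sheddase ADAM17. Its values were 510.2 and 583 CPM in CAF-vec and 363, 388 and 354 CPM in CAF-200. All CAF-200 values were below the CAF-vec values. *Timp3* fell by 0.57 on the log2 scale (SE 0.109, limma, adjusted *p* = 0.0157), with means of 546 ± 51.2 CPM (SD, n = 2) without and 368 ± 17.6 CPM (SD, n = 3) with miR-200 overexpression. Without any 1 of the CAF-200 samples the adjusted *p* was 0.0698 to 0.0917, and with the replicate number as a block it was 0.113 (limma). *Timp3* lies within *Syn3*, on the opposite strand.

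Among the proteases, *Mmp14* (ENSMUSG00000000957, chromosome 14, 54431612 to 54445364, plus strand) was the most abundant member. It encodes a membrane-anchored MMP that cuts fibrillar collagen at the cell surface and activates the precursor of MMP2. The values were 417 and 453 CPM in CAF-vec and 227, 222 and 224 CPM in CAF-200. The groups were well apart, and the CAF-200 samples were nearly equal. Its means were 435 ± 25.6 CPM (SD, n = 2) and 224 ± 2.43 CPM (SD, n = 3), so that CAF-200 held 51.7% of the CAF-vec level on the log scale used. *Mmp14* fell by 0.95 on the log2 scale (SE 0.0909, 95% interval -1.18 to -0.73, limma, adjusted *p* = 0.00318), just inside the fold threshold of the study. Without CAF-vec 1 the log2 fold-change was -1.01 and *Mmp14* passed both thresholds. In the other fits it ranged from -0.96 to -0.86, with an adjusted *p* of at most 0.0338 (limma). *Mmp14* ranked 546 among the tested genes ordered from the largest fall.

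*Mmp2* (ENSMUSG00000031740, chromosome 8, 92827291 to 92853420, plus strand) encodes gelatinase A, which degrades denatured collagen and basement membrane collagen after activation at the cell surface. It was at 29.0 and 25.3 CPM in CAF-vec and at 18.9, 18.6 and 19.3 CPM in CAF-200. The CAF-200 samples were all lower. *Mmp2* fell by 0.51 on the log2 scale (SE 0.0967, limma, adjusted *p* = 0.0152), with means of 27.2 ± 2.60 CPM (SD, n = 2) without and 18.9 ± 0.356 CPM (SD, n = 3) with miR-200 overexpression. Without any 1 of the CAF-200 samples the adjusted *p* was 0.0756 to 0.0793, and with the replicate number as a block it was 0.0841 (limma).

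*Mmp19* (ENSMUSG00000025355, chromosome 10, 128790910 to 128800824, plus strand), a secreted MMP that cuts basement membrane proteins, was the tested member whose groups overlapped. Its values were 51.2 and 65.2 CPM in CAF-vec and 56.6, 57.3 and 56.0 CPM in CAF-200. All CAF-200 values lay between the CAF-vec values. The log2 fold-change was -0.03 (SE 0.12, 95% interval -0.33 to 0.27, limma, adjusted *p* = 0.858). Its sign turned to 0.0809 after quantile normalization, to 0.0665 after centring on the sample medians and to 0.14 without CAF-vec 2, while without CAF-vec 1 it was -0.20 (limma, adjusted *p* = 0.0377).

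**Figure D2:**
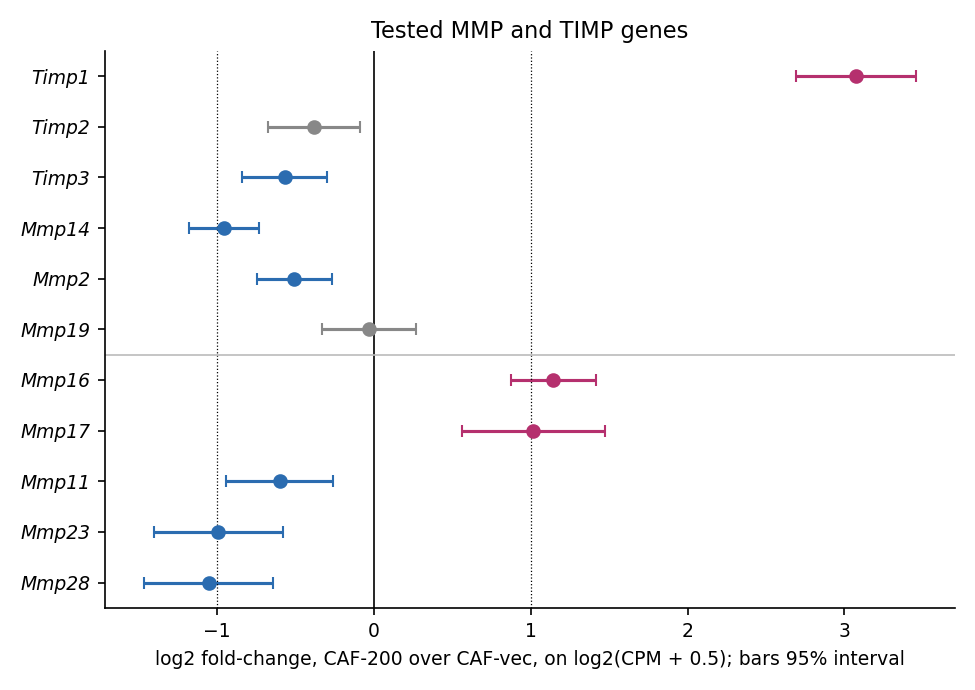
Log2 fold-change of CAF-200 over CAF-vec on log2(CPM + 0.5) with its 95% interval from limma, for the 6 tested members (above the gray line) and the 5 other tested MMP genes (below it). Magenta marks genes higher and blue genes lower at an adjusted *p* under 0.05, gray marks the others, and dotted lines stand at -1 and 1; *Timp1*, at 3.07, lies apart from all other genes shown.

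The other 4 members were below the 0.5 CPM needed for testing in every sample. *Mmp9* (ENSMUSG00000017737, chromosome 2, 164940780 to 164955850, plus strand), which encodes gelatinase B and is made mostly by leukocytes, was at 0.0476 and 0.00964 CPM in CAF-vec and at 0.0203, 6.1e-05 and 5.5e-05 CPM in CAF-200. The groups overlapped. The last 2 values are far below the commonest low value of the CAF-200 samples (0.0102 to 0.0105 CPM), and 788 to 1100 genes of each CAF-200 sample, against 0 in CAF-vec, had values above 0 and below 0.001 CPM.

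The remaining untested members encode the stromelysins *Mmp3* and *Mmp10*, which cut proteoglycans and fibronectin and activate other MMPs, and *Mmp13*, an interstitial collagenase. *Mmp3* (ENSMUSG00000043613, chromosome 9, 7445822 to 7455975, plus strand) was at 0.227 and 0.0488 CPM in CAF-vec and at 0.0608, 0.152 and 0.102 CPM in CAF-200, so the groups overlapped. *Mmp10* (ENSMUSG00000047562, chromosome 9, 7502352 to 7510240, plus strand) was listed at 0 in CAF-vec 1 and 2 and at 0.0406, 0.0516 and 0.0815 CPM in CAF-200. *Mmp13* (ENSMUSG00000050578, chromosome 9, 7272514 to 7283331, plus strand) was listed at 0 in CAF-vec 1 and 2 and at 0.0304, 0.0312 and 0.0209 CPM in CAF-200. *Mmp10* and *Mmp13* were therefore listed above 0 in CAF-200 only, at levels too low to test. Of all 21835 genes, 15708 were listed above 0 in every CAF-200 sample and the other 6127 in none.

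These 3 genes lie in a cluster of 10 MMP genes on chromosome 9 (7272514 to 7699585), where the promoters hold a shared sequence. TGAGTCA, on either strand, was found in the RefSeq promoters of 7 of the 10 genes of the cluster. It was found in 0 of the 12 other MMP and TIMP genes with a RefSeq promoter. A gene was counted if any of its promoters held the motif. Counted by single promoter, which is a different unit, 1709 of all 32851 held it, or 5.2%. The windows of the 3 members, with the motif in capitals and written 5′ to 3′ on the gene's strand, are shown because their genes were the members with TGAGTCA.
*Mmp3* (chr9:7445766-7445792, plus strand, motif 46 bases before the start): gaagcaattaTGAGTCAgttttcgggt
*Mmp10* (chr9:7502269-7502295, plus strand, motif 63 bases before the start): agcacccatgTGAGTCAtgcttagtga
*Mmp13* (chr9:7272469-7272495, plus strand, motif on the opposite strand, 35 bases before the start): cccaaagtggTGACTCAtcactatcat
The motif was not in the windows of *Timp1*, *Timp2*, *Timp3* or *Mmp14*. *Mmp2*, *Mmp9* and *Mmp19* were not in the promoter table.

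Levels can be compared between genes only per length, and were expressed as CPM per kilobase of the longest annotated transcript. In CAF-vec, *Timp2* was highest at 441 ± 8.54 CPM per kilobase (SD, n = 2), followed by *Timp1* at 307 ± 40.3, *Mmp14* at 134 ± 7.91, *Timp3* at 116 ± 10.8, *Mmp19* at 17.1 ± 2.90 and *Mmp2* at 8.82 ± 0.846. In CAF-200, *Timp1* was highest at 2586 ± 310.5 CPM per kilobase (SD, n = 3), followed by *Timp2* at 339 ± 17.9, *Timp3* at 78.0 ± 3.72, *Mmp14* at 69.3 ± 0.751, *Mmp19* at 16.6 ± 0.190 and *Mmp2* at 6.15 ± 0.116. *Timp1* and *Timp2* thus changed places at the top of the order, as did *Mmp14* and *Timp3* below them. The sample ranges of neighbours in either order did not overlap for these 6 genes. Per kilobase of all annotated exons instead, the order was the same, but *Mmp14* (69.9 and 76.0 CPM per kilobase) and *Timp3* (62.6 and 71.5 CPM per kilobase) overlapped in CAF-vec. Below them, *Mmp3* and *Mmp10* overlapped in CAF-200, and *Mmp10* and *Mmp13* were both listed at 0 in CAF-vec.

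Sums were taken over every TIMP gene and every MMP gene of the table, members or not. The summed level of the TIMP genes was 833 and 893 CPM per kilobase in CAF-vec and 2930, 2755 and 3324 CPM per kilobase in CAF-200. The inhibitor transcripts together were higher in every CAF-200 sample, and *Timp1* made up 33.4% and 37.5% of the sum in CAF-vec and 85.3%, 84.5% and 88.2% in CAF-200. The share of *Timp2* was 53.6% and 48.7% in CAF-vec and 12.0%, 12.5% and 9.59% in CAF-200. The summed level of the MMP genes was 312 and 283 CPM per kilobase in CAF-vec and 174, 174 and 167 CPM per kilobase in CAF-200, lower in every CAF-200 sample. Beside the members, this sum holds *Mmp11* (a mean of 21.0% of it in CAF-vec and 24.0% in CAF-200) and *Mmp23* (24.3% and 21.0%), whose values are given further on. The ratio of the MMP sum to the TIMP sum was accordingly 0.375 and 0.317 in CAF-vec and 0.0594, 0.0631 and 0.0501 in CAF-200. Per kilobase of all annotated exons the MMP sum was 206 and 185 in CAF-vec and 119, 119 and 113 in CAF-200, lower in the latter as well. These sums describe transcripts, not active enzyme, and were not tested.

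**Figure D3:**
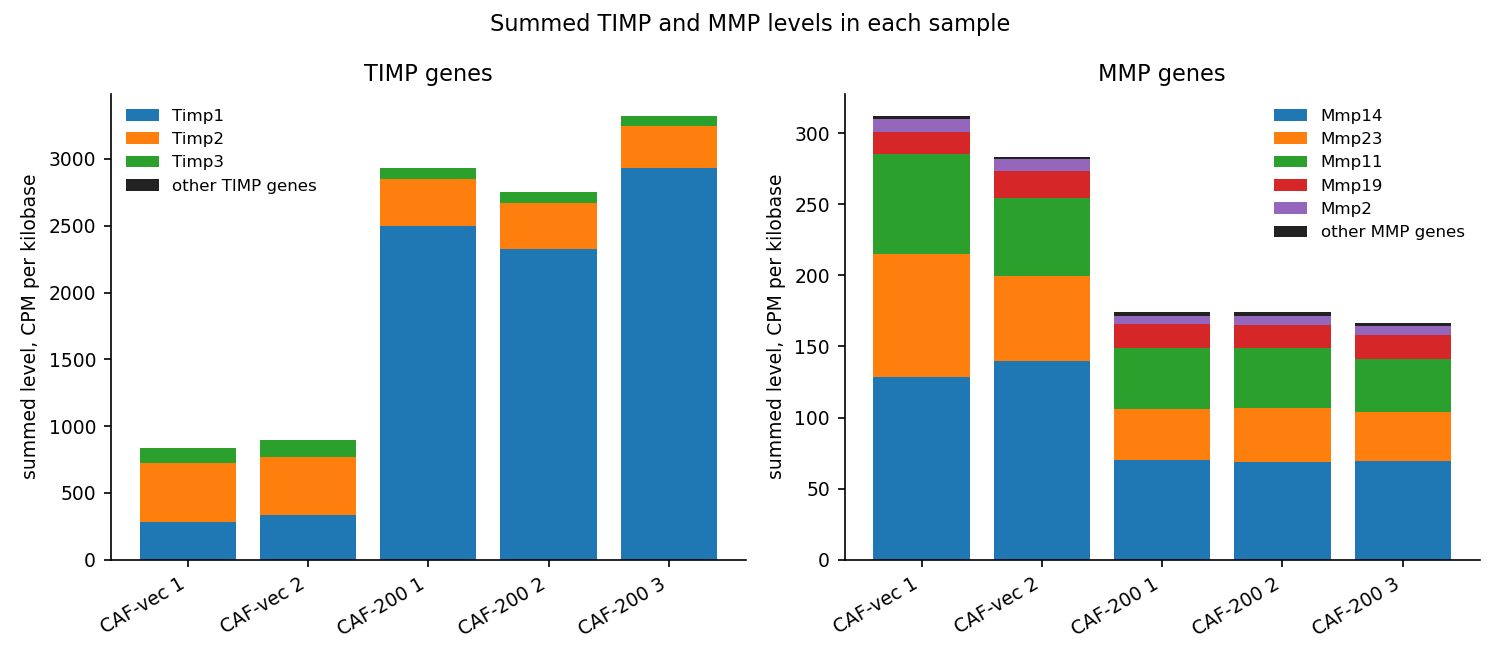
Stacked levels in CPM per kilobase of the longest transcript in each of the 5 samples, for the TIMP genes (left) and the MMP genes (right), with separate vertical axes that start at 0. The TIMP columns of CAF-200 reach 2755 to 3324 and are mostly *Timp1*, while the MMP columns reach 283 to 312 in CAF-vec and 167 to 174 in CAF-200.

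Within this balance the partners of MMP14 differed. *Timp2* over *Mmp14*, as a ratio of levels per kilobase, was 3.47 and 3.11 in CAF-vec and 5.03, 5.03 and 4.61 in CAF-200, and *Timp3* over *Mmp14* was 0.839 and 0.882 in CAF-vec and 1.10, 1.20 and 1.08 in CAF-200. Both ratios were higher in all CAF-200 samples, with *Mmp14* lower by more than either inhibitor. Their size depends on the gene length used: per kilobase of all annotated exons, an alternative chosen after seeing the data, *Timp2* over *Mmp14* was 6.08 and 5.45 in CAF-vec and 8.82, 8.82 and 8.08 in CAF-200. *Timp1* over *Mmp14* was 2.16 and 2.40 in CAF-vec and 35.7, 33.9 and 42.4 in CAF-200, and by exon length 3.96 and 4.38, and 65.3, 62.1 and 77.5. *Mmp14* itself kept a like share of the summed MMP level, 41.2% and 49.4% in CAF-vec against 40.3%, 39.4% and 41.5% in CAF-200.

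Of the 17 other MMP and TIMP genes listed, 16 were in the table used and 5 were tested. Of these 5, 1 was higher and 1 lower by both thresholds, which 4.72% of all tested genes passed. At an adjusted *p* under 0.05, 2 were higher and 3 lower, where 11.9% and 18.6% of all tested genes were. The median log2 fold-change of the 5 genes was -0.60. Of the tested membrane-anchored MMPs, *Mmp16* and *Mmp17* were higher, whereas *Mmp23* and the member *Mmp14* were lower. *Mmp16*, a transmembrane MMP related to MMP14, was at 2.68 and 2.38 CPM in CAF-vec and at 6.21, 6.06 and 6.30 CPM in CAF-200. It rose by 1.15 on the log2 scale (SE 0.109, limma, adjusted *p* = 0.00318), and no values of the groups overlapped. *Mmp17*, which is attached by a lipid anchor, was at 0.857 and 0.588 CPM in CAF-vec and at 1.98, 2.30 and 1.64 CPM in CAF-200, giving a log2 fold-change of 1.02 (SE 0.184, limma, adjusted *p* = 0.0133). The remaining tested genes, *Mmp28*, *Mmp23* and *Mmp11*, were lower. *Mmp28*, a secreted MMP, was at 4.11 and 2.97 CPM in CAF-vec and at 1.58, 1.34 and 1.37 CPM in CAF-200, and fell by 1.05 on the log2 scale (SE 0.167, limma, adjusted *p* = 0.00943). *Mmp23*, which is a type II membrane protein, was at 124 and 85.5 CPM in CAF-vec and at 51.0, 54.4 and 49.3 CPM in CAF-200, and fell by 0.99 (SE 0.166, limma, adjusted *p* = 0.0107). *Mmp11*, the stromal protease known as stromelysin 3 and a marker of tumor fibroblasts, was at 162 and 125 CPM in CAF-vec and at 98.9, 96.4 and 86.9 CPM in CAF-200, and fell by 0.60 (SE 0.137, limma, adjusted *p* = 0.025). Without any 1 of the CAF-200 samples, *Mmp11* (adjusted *p* 0.08 to 0.109) and *Mmp23* (0.0504 to 0.0608) were no longer called at 0.05, *Mmp17* was lost without CAF-200 1 (0.0584) or CAF-200 2 (0.059), and *Mmp28* without CAF-200 2 (0.0514) or CAF-200 3 (0.0544) (limma). *Mmp11* was also lost with replicate number as a block (0.0894, limma). Leaving out 1 CAF-200 sample left 0 of these 5 genes past both thresholds, and at most 1 of all tested genes.

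Seed matches to the overexpressed microRNAs were searched in the longest annotated 3′-UTR of each gene (GENCODE M21, GRCm38) as CAGTATT for miR-200b and miR-429 and as CAGTGTT for miR-200a. Of the 12060 tested coding genes with a 3′-UTR, 3650 held at least 1 match, or 30.3%, at a median UTR length of 1174 bases. None of the 6 tested members had a match, including the lower genes *Mmp14* (UTR of 1328 bases), *Mmp2* (755 bases) and *Timp3* (3604 bases), and *Timp1* has a UTR of 103 bases. Of all 10 members 1 had a match, the untested *Mmp13*, with a miR-200a match at bases 1112 to 1118 of its UTR of 1213 bases. Of the 5 other tested MMP genes 3 had one, namely *Mmp28*, which fell, and *Mmp16* and *Mmp17*, which rose. These sites are shown in the sense of the transcript, with the match in capitals.
*Mmp13*, miR-200a (chr9:7283220-7283246, plus strand): tgtcaagagaCAGTGTTaattaaactg
*Mmp28*, miR-200b and miR-429 (chr11:83441572-83441598, minus strand): cagcctgtctCAGTATTaattttagca
*Mmp16*, miR-200b and miR-429 (chr4:18117796-18117822, plus strand): gtcctaacagCAGTATTgtcattctca
*Mmp16*, miR-200a (chr4:18118956-18118982, plus strand): cctgtttataCAGTGTTtgcttgttag
*Mmp17*, miR-200a (chr5:129610497-129610523, plus strand): gctgtggccaCAGTGTTctctataggc
A match in these letters does not show that a microRNA binds, and sites outside the 3′-UTR or without a full seed match were not searched.

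Genes that activate, restrain or answer to MMPs were described as lists beside the members. Of all tested genes, 4.72% passed both thresholds, and 11.9% were higher and 18.6% lower at an adjusted *p* under 0.05. Among 4 tested inhibitors and clearance receptors outside the TIMP family, 2 were higher by both thresholds and 1 was lower at an adjusted *p* under 0.05. *Serpinb2*, which encodes a serine protease inhibitor, was listed at 0 in CAF-vec 1 and 2 and at 5.61, 4.93 and 12.6 CPM in CAF-200. It reached the level needed for testing only through CAF-200, so its call, counted above, is not an independent test of the rise. *Reck*, a membrane-anchored inhibitor of MMP14, MMP2 and MMP9 that is named here after its values were seen, was at 27.6 and 29.1 CPM in CAF-vec and at 13.8, 15.1 and 14.3 CPM in CAF-200, and fell by 0.95 (SE 0.091, limma, adjusted *p* = 0.00318).

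Among 9 tested genes of MMP activation, 3 were higher and 1 lower at an adjusted *p* under 0.05, with a median log2 fold-change of 0.06. By that rule 11.9% of all tested genes were higher and 18.6% lower, and 4.72% passed both thresholds. By both thresholds 1 was higher, *Cd44*, a hyaluronan receptor that docks MMPs at the cell surface, with a log2 fold-change of 1.13 (SE 0.149, limma, adjusted *p* = 0.00619). Among 7 tested sheddases of the ADAM family, *Adam12* was higher by both thresholds (log2 fold-change 1.39, SE 0.116, limma, adjusted *p* = 0.00278), and 2 were lower at an adjusted *p* under 0.05. The median over these 7 was 0.11.

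The list of AP-1 and Ets transcription factors, which regulate many MMP and TIMP genes, had 11 tested genes. At an adjusted *p* under 0.05, 5 were higher and 2 lower, where 11.9% and 18.6% of all tested genes were. The median log2 fold-change of the list was 0.15. By both thresholds, which 4.72% of all tested genes passed, 2 of these factors were higher. *Etv4*, an Ets factor, was at 9.52 and 9.44 CPM in CAF-vec and at 30.8, 23.6 and 33.8 CPM in CAF-200 (log2 fold-change 1.57, SE 0.163, limma, adjusted *p* = 0.0037). *Fosl1*, a Fos-family subunit of AP-1, was at 55.0 and 46.6 CPM in CAF-vec and at 115, 93.9 and 132 CPM in CAF-200 (log2 fold-change 1.15, SE 0.166, limma, adjusted *p* = 0.00771). Both groups were fully apart for each of these factors. The lower factors, named after their values were seen, were 2 other AP-1 subunits. *Jund* was at 330.0 and 167 CPM in CAF-vec and at 101, 98.9 and 82.1 CPM in CAF-200, and fell by 1.32 on the log2 scale (SE 0.289, limma, adjusted *p* = 0.0221), and *Fosl2* fell by 0.37 (SE 0.0943, limma, adjusted *p* = 0.0342).

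Of 11 tested matrix substrates, 4 were higher and 0 lower at an adjusted *p* under 0.05, and the median log2 fold-change was 0.60. Among all tested genes 11.9% were higher and 18.6% lower by this rule, and 4.72% passed both thresholds. By both thresholds 3 rose: *Dcn*, the small proteoglycan decorin (2.75, limma, adjusted *p* = 8.4e-04), *Spp1*, the secreted phosphoprotein osteopontin (2.54, limma, adjusted *p* = 9.3e-04), and *Vcan*, the large proteoglycan versican (1.77, limma, adjusted *p* = 0.0028). Collagen I, the main substrate of MMP14, differed between the CAF-vec samples: *Col1a1* was at 4613 and 2003 CPM in CAF-vec and at 1719, 1599 and 1543 CPM in CAF-200, giving a log2 fold-change of -0.91 (limma, adjusted *p* = 0.0982). Over these lists of activators, inhibitors, sheddases, regulators and substrates, 9 genes passed both thresholds with all samples. Without any 1 of the CAF-200 samples 0 did, where at most 1 of all tested genes passed.

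Leukocytes are another source of MMPs, and their markers were low but not equal between the groups. Of 7 macrophage and leukocyte markers, 4 were below 0.1 CPM in every sample, among them *Ptprc*, *Adgre1* and *Tyrobp*, and the list summed to 8.34 to 9.40 CPM in CAF-vec but 12.2 to 12.9 CPM in CAF-200, and the marker that rose was *Lyz2* (log2 fold-change 1.91, limma, adjusted *p* = 0.00395). The other 2 tested markers of that list were not higher, with log2 fold-changes of -0.14 for *Cd68* (limma, adjusted *p* = 0.758) and -0.46 for *Csf1r* (limma, adjusted *p* = 0.25). The 5 neutrophil markers summed to 0.228 to 0.533 CPM in CAF-vec but 2.23 to 2.84 CPM in CAF-200, most of it *S100a8* (log2 fold-change 1.81). *S100a8* was at 0.295 and 0.228 CPM in CAF-vec and reached the level needed for testing only through CAF-200. Of these 5, 3 were below 0.1 CPM in every sample, with *S100a9* and *Ly6g* listed at 0 throughout and *Elane* at no more than 0.0611 CPM, and the groups overlapped in *Mpo*. The 5 endothelial markers summed to 0.167 to 1.06 CPM in CAF-vec against 0.223 to 0.508 CPM in CAF-200. The part of these differences in the values of the members was not tested.

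With each sample left out in turn, *Timp1*, *Timp2*, *Timp3*, *Mmp14* and *Mmp2* kept the direction of their log2 fold-change in all 5 fits, and *Mmp19* did not. *Timp1* ranged from 2.94 to 3.21, *Mmp14* from -1.01 to -0.89, *Timp3* from -0.66 to -0.47, *Mmp2* from -0.60 to -0.41 and *Timp2* from -0.41 to -0.34.

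**Figure D4:**
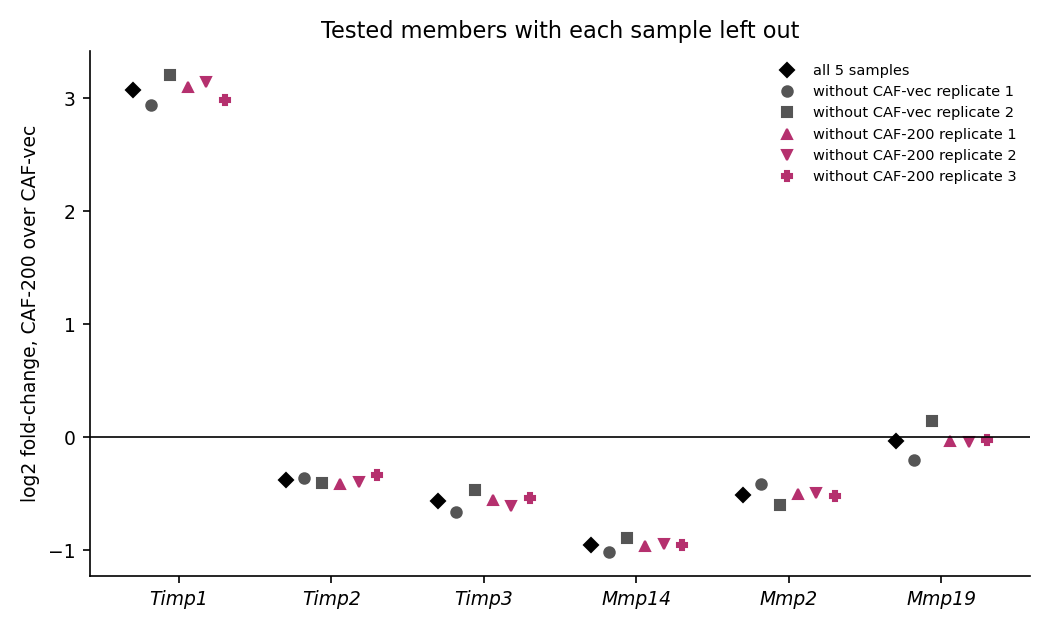
Log2 fold-change of the 6 tested members with all 5 samples (black) and with each sample left out in turn (gray, a CAF-vec sample; magenta, a CAF-200 sample). *Timp1* stays between 2.94 and 3.21 and *Mmp14* between -1.01 and -0.89, while *Mmp19* crosses 0, from -0.20 to 0.14.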

How the data were processed

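Stranded mRNA libraries of 2 CAF-vec and 3 CAF-200 samples were sequenced paired-end, and the authors deposited 1 table of normalized CPM values whose name refers to TMM scaling. The submitters' processing notes name FastQC, cutadapt, Trimmomatic, STAR, RSEM and edgeR with GRCm38 (mm10). All 5 sample columns were used. Whole reads could not be recovered: 25.4% to 54.8% of low values were within 0.05 of a whole multiple of the commonest low value, so no count test was run and depth is unknown.

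The 12175 genes (of 21835) that reached 0.5 CPM in 2 or more samples were fitted as log2(CPM + 0.5) in limma 3.58.1 (R 4.3.3; lmFit, then eBayes with trend), and *p* values were adjusted over all of them by Benjamini-Hochberg. The procedure was run on simulated data with equal spread in both groups and planted changes larger than those of most called members. These settings differ from the samples, so that run does not test the calls made here. Samples were grouped by their titles. Names, transcript lengths and 3′-UTRs came from GENCODE M21 and promoters and microRNAs from RefSeq. Named genes are the 10 members, every other tested MMP or TIMP gene, the genes of each list past both thresholds (at most 5) and the 5 genes most like the member with the largest change. The members and lists were chosen with earlier results of these data known. Figures used matplotlib 3.10.9. Of the other inhibitors, 1 gene is counted in its list but is not reported here.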

Additional observations from a re-analysis of the deposited data

How the results depend on the processing

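Of the 6 tested members, none other than *Mmp19* changed direction under another pseudocount, filter, scaling or variance setting, the replicate block or a left-out sample. Of the 11 tested MMP and TIMP genes, 126 of the alternative values kept both direction and call, 19 lost the call, 5 gained it and 3 (all of *Mmp19*: 0.0809 with quantile normalization, 0.0665 with median centring and, over the left-out samples, -0.20 to 0.14) reversed. Leaving out 1 sample moved the members past both thresholds from 1 to between 0 and 2 (higher, 0 to 1; lower, 0 to 1), those at an adjusted *p* under 0.05 from 4 to between 2 and 6 (lower, from 3 to between 1 and 5), the other MMP and TIMP genes past both thresholds from 2 to between 0 and 3, and the related lists from 9 to between 0 and 12. Over all tested genes, the share past both thresholds moved from 4.72% to between 0% and 12.7% in these fits, and that at an adjusted *p* under 0.05 from 30.5% to between 7.59% and 64.8%. Without a CAF-vec sample, the lone one is assumed to vary like the CAF-200 samples. The other MMP and TIMP genes past both thresholds numbered 1 with a pseudocount of 1 CPM, without a filter, with quantile normalization or with robust variance.

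With the replicate number as a block, the members at an adjusted *p* under 0.05 numbered 2 (1 lower), and 0 other MMP and TIMP genes passed both thresholds, where 12.2% and 1.4% of all tested genes did. The labels do not say that the numbers pair samples, and only 2 pairs exist. Deviations from the group means correlated at 0.25 for number 1, 0.13 for number 2 and 0.12 between CAF-vec 2 and CAF-200 3. With 2 CAF-vec samples the deviations are mirror images, so the signs of these correlations are tied and cannot show pairing. Centring on the sample medians gave 365 genes higher and 228 lower past both thresholds, against 289 and 286. No count test was run, because whole reads were not recovered. Depth is unknown, so no limit can be set for genes listed at 0, and no cause of these dependences was tested.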
